A study of Mus musculus with 12 samples.

Results

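Naive B cells, the start of a culture series, were compared directly with plasmablasts, its end. The members were the 2 libraries of naive B cells and the 2 of plasmablasts, 4 of the 12 RNA-Seq libraries of the series. The other 8 came from undivided cells 3, 10 and 33 h after activation and from expanded B cells, and they were used to set the spread and to ask which genes had left the naive level on the way. The question was how far the transcriptome had moved in net terms, which genes ended where they began, and which differed only between the ends.

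Both groups came from the spleens of male C57BL/6 mice aged 6 to 12 weeks, on a Pep3b background according to the methods. Naive B cells were sorted straight from the spleen, by markers that included TCRβ- B220+ IgM+ IgDhi, and were not stimulated. Plasmablasts were grown from B cells that had been isolated by depletion of other cells, stimulated in culture with 25 µg/ml lipopolysaccharide (LPS), a bacterial cell wall component, and sorted on day 4 as CD22- CD138+ cells. Expanded B cells were the CD22+ CD138- cells of the same day, and the undivided cells were sorted as CD69+ with the least diluted division dye. Since naive B cells were never cultured and were sorted on other markers, the effects of differentiation, division, LPS, culture and the sort cannot be told apart. The study prepared biological duplicates, and with 2 libraries against 2 an exact test cannot go below p = 0.333, so that the p-values below rest on the spread shared by all 12 libraries.

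A naive B cell is a small resting lymphocyte that carries IgM and IgD as antigen receptors and presents antigen on MHC class II molecules. A plasmablast is its dividing, antibody-secreting descendant. Secretion needs an enlarged endoplasmic reticulum (ER), in which immunoglobulin chains are translocated, folded and glycosylated, and the transcription factors PRDM1 and XBP1 are known for this programme, whereas PAX5 and CIITA are known for B-cell identity and for MHC class II expression.

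The total counts were 38319954 and 29898781 in naive B cells and 32263933 and 39511515 in plasmablasts, so that a count of 0 allows up to 0.0759 to 0.10 CPM (counts scaled to the library total), which covers counting error only. Immunoglobulin genes took 1.72% and 1.71% of the counts of naive B cells and 16.6% and 16.2% of those of plasmablasts, and mitochondrial genes took 10.3% and 11.5% against 5.43% and 5.61%. The naive libraries also held RNA of genes that serve as markers of other blood cells. The 14 myeloid markers summed to 310.1 and 148.3 CPM in naive B cells, with none of them at 0, against 16.6 and 18.2 CPM in plasmablasts, where 7 and 5 of them were at 0. The 11 markers of erythroid cells and platelets summed to 200.2 and 149.5 CPM, again with none at 0, against 0.899 and 0.911 CPM, with 7 and 5 at 0. The 15 T-cell markers summed to 304.3 and 321.8 CPM, most of it Cd2, against 88.5 and 95.4 CPM, most of it Cd28, and 12 markers of natural killer and dendritic cells summed to 27.1 and 23.8 against 31.3 and 27.7 CPM, of which Flt3 alone made 27.8 and 23.8 CPM in plasmablasts. None of these 12 was at 0 in naive B cells and 6 were in each plasmablast library, and of the 11 tested 8 fell and 2 rose. The part of these cells in the falls given below was not tested. In bulk RNA, fewer cells of a type and less RNA per cell cannot be told apart.

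Of 12750 genes tested, 6371 differed between plasmablasts and naive B cells by significantly more than 1.5-fold, by edgeR's glmTreat at a Benjamini-Hochberg adjusted p of 0.05. These genes are said below to have risen or fallen. Of them, 3386 rose, which is 26.6% of the genes tested, and 2985 fell, which is 23.4%. The median log2 fold change was 1.89 among genes that rose and -1.82 among genes that fell. By more than 4 log2 units, which is 16-fold, 600 genes rose and 540 fell. For 799 of the 6371 genes an end lay at the floor of at most 3 counts in both libraries, 363 of them with naive B cells and 436 with plasmablasts at the floor, and no fold change is printed for them. With these genes set to the bound that 3 counts in each library gives, the medians were 1.84 and -1.75, and no median of the gene lists below moved but that of the amino acid list, which went from 2.01 to 1.94. The split depended on the scaling. When libraries were scaled by their total alone, 2730 genes rose and 3884 fell, the share of rises among the calls went from 53.1% to 41.3%, and the median log2 fold change of all genes moved from 0.02 to -0.26.

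**Figure D1:**
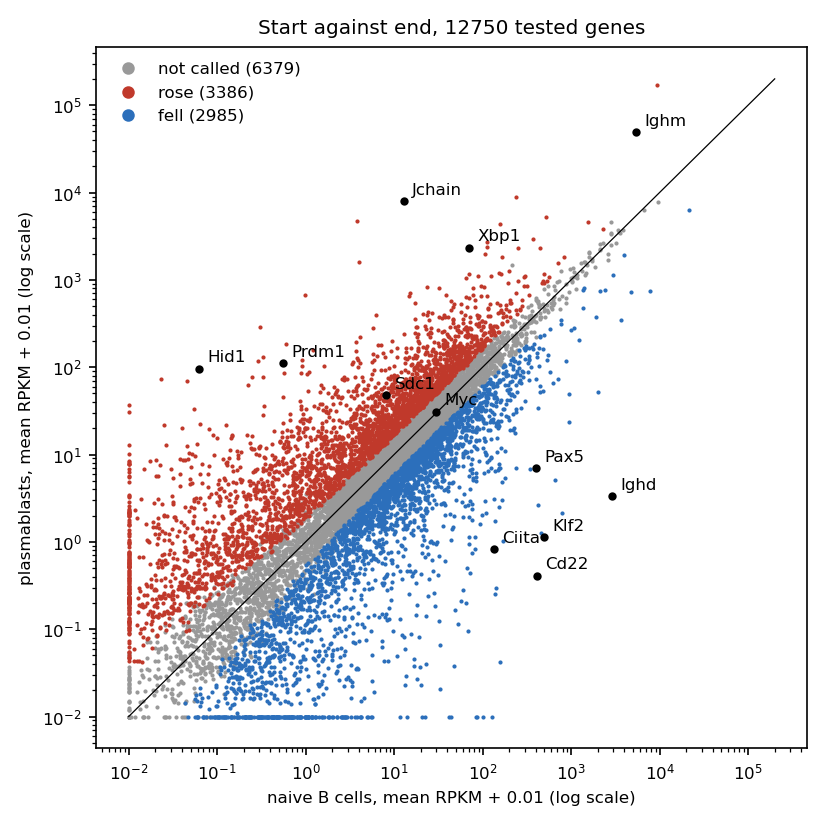
Mean RPKM (read counts scaled to gene length and library size) of 2 naive libraries against that of 2 plasmablast libraries, each point a tested gene, with 0.01 RPKM added and both axes on a log scale. The 3386 genes that rose lie above the line of equality, the 2985 that fell below it, and Myc lies close to it.

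The 4 genes that mark the change moved as their labels say. Sdc1 (chr12:8771396-8793716 in mm10) encodes CD138, on which plasmablasts were sorted, so that its rise is a check of the sort. It stood at 8.54 and 7.72 RPKM in naive B cells and at 47.6 and 48.0 RPKM in plasmablasts, a log2 fold change of 2.55 ± 0.20 (SE). The path was not straight, since Sdc1 was at 0.598 and 0.441 RPKM at 10 h, below both ends. Xbp1 (chr11:5520641-5525993), the transcription factor of the ER stress response, rose from 68.3 and 71.9 to 2231 and 2439 RPKM, a log2 fold change of 5.06 ± 0.28 with an adjusted p of 3.33e-07 in glmTreat. Ciita (chr16:10480014-10531064), the coactivator of MHC class II genes, fell from 138 and 133 to 0.900 and 0.743 RPKM, with a log2 fold change of -7.37 ± 0.27 and an adjusted p of 2.78e-09 in glmTreat. Pax5 (chr4:44524748-44710694), the factor of B-cell commitment, fell from 408 and 385 to 7.54 and 6.42 RPKM, with a log2 fold change of -5.83 ± 0.18 and an adjusted p of 2.73e-10 in glmTreat. In none of the 4 genes did the ends overlap. The general B-cell markers Cd79a, Cd79b, Ms4a1 and Ptprc all fell as well, and none of them was at 0 in plasmablasts. Naive B cells had been sorted on B220, a product of Ptprc.

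**Figure D2:**
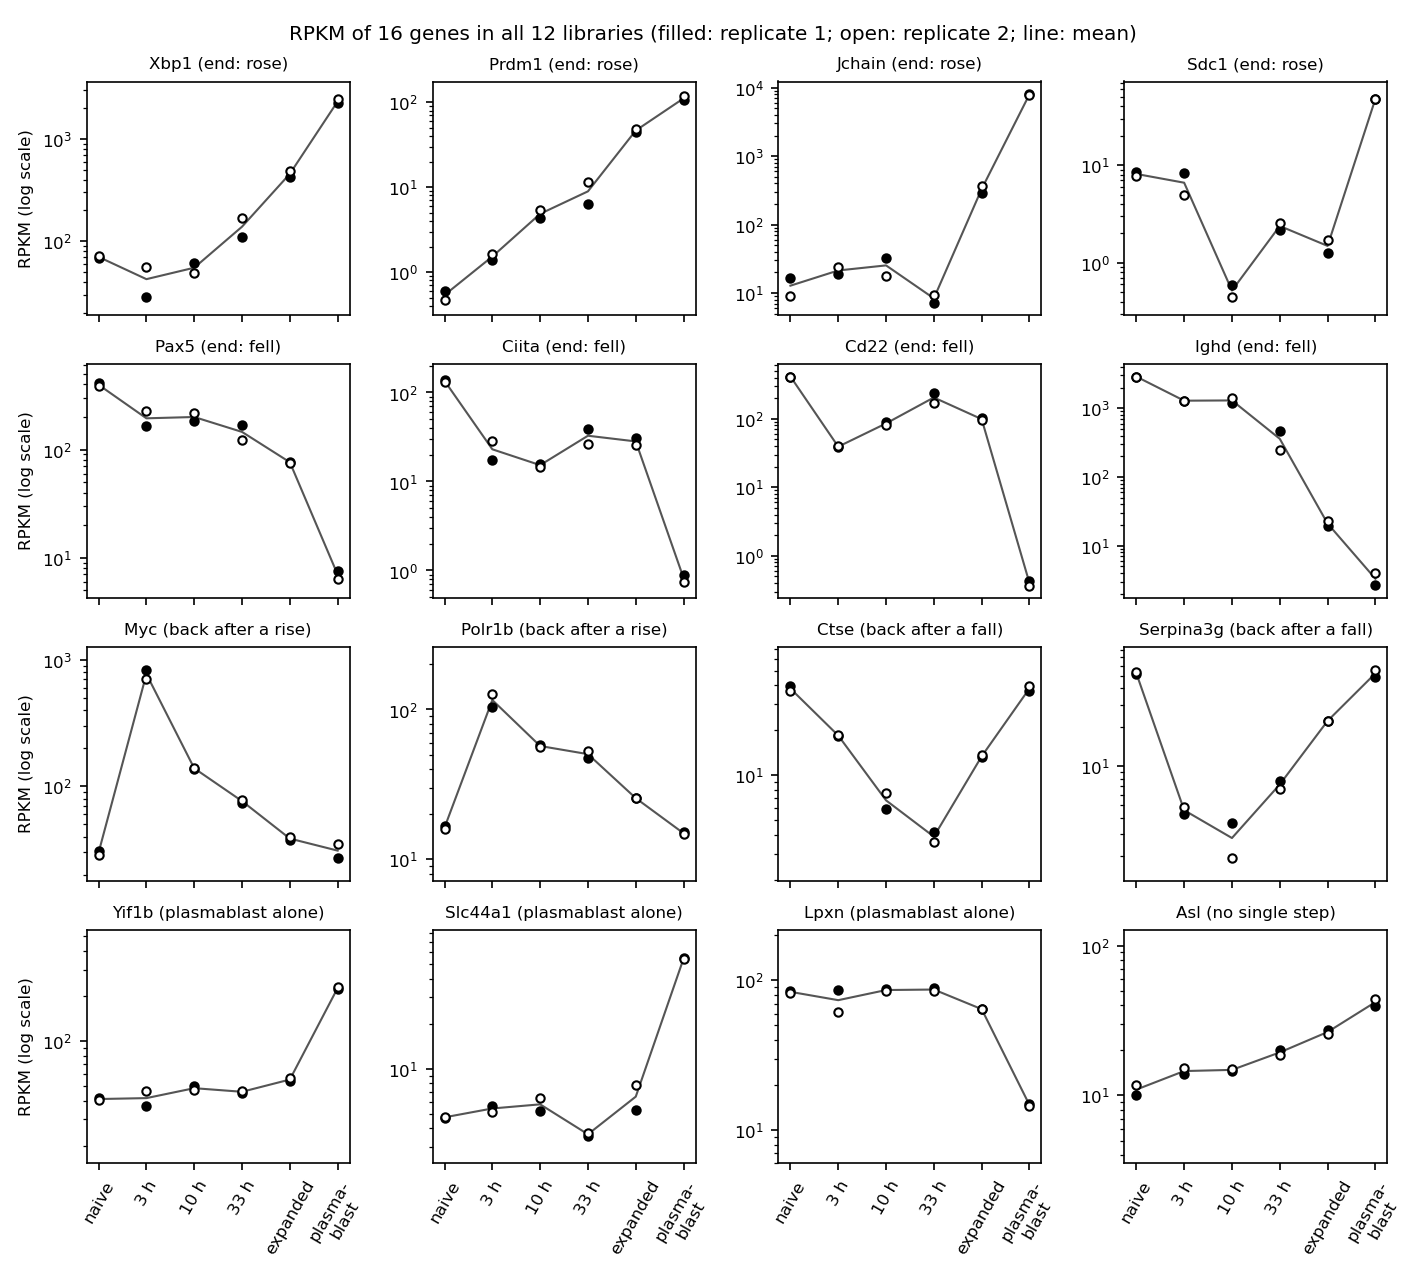
RPKM on a log scale of 16 genes in all 12 libraries, in the order naive, 3 h, 10 h, 33 h, expanded and plasmablast, with replicate 1 filled, replicate 2 open and a line through the means. Xbp1 went from 68.3 and 71.9 to 2231 and 2439 RPKM, Pax5 from 408 and 385 to 7.54 and 6.42 RPKM, and Myc, Polr1b, Ctse and Serpina3g ended within 1.5-fold of where they began.

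The largest rises among genes of some abundance (average log2 CPM of at least 5) that were above the floor at both ends were those of secretory and immunoglobulin genes. Hid1, a Golgi-associated trafficking gene, went from 0.0821 and 0.0240 to 92.3 and 99.6 RPKM, with a log2 fold change of 10.69 ± 0.84. Its naive counts were only 9 and 2, close to the floor. For Ighg3, a heavy chain constant gene of switched antibody, the values were 3.76 and 3.74 RPKM against 3972 and 5402 RPKM, with a log2 fold change of 10.28 ± 0.28. Tmed6, of the p24 family of cargo proteins, stood at 0.137 and 0.449 RPKM and then at 300.4 and 278 RPKM, and its naive counts were 4 and 10. In all of these genes both plasmablast libraries lay far above both naive libraries. Tent5c, a poly(A) polymerase, rose from 1.06 and 0.879 to 652 and 674 RPKM. Jchain, the chain that joins IgM and IgA into polymers, rose from 16.4 and 9.13 to 8216 and 7779 RPKM, behind only Igkc, Ighm and Mzb1 in mean RPKM at the end among the genes tested. Bhlha15, which encodes the transcription factor MIST1 of secretory cells, rose from 0.287 and 0.266 to 118 and 117 RPKM. The rest of the leading rises were Ighg1 (log2 fold change 8.74), Ighg2b (8.66), the asparagine synthetase gene Asns (8.42) and Prdm1 (7.67). The Ighg genes are close copies, so that reads may have been split between them.

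Under the same limits of abundance and floor, the largest falls were those of genes of the resting B cell. Cd22, an inhibitory coreceptor, fell from 413 and 414 to 0.432 and 0.368 RPKM (log2 fold change -10.02 ± 0.20), but plasmablasts were sorted as CD22-, so that this is a check of the sort. Ighd, the constant gene of IgD, fell from 2879 and 2894 to 2.65 and 3.99 RPKM (log2 fold change -9.75 ± 0.33), and naive B cells had been sorted as IgDhi. Sorl1, a sorting receptor, fell from 139 and 139 to 0.287 and 0.193 RPKM. No naive value of these genes came near a plasmablast value. Tlr9, the receptor of unmethylated DNA, fell from 142 and 141 to 0.268 and 0.305 RPKM. Klf2, a factor of lymphocyte quiescence, fell from 525 and 471 to 1.07 and 1.17 RPKM. Fcer2a, which encodes CD23, fell from 761 and 819 to 2.23 and 2.06 RPKM. The glycosyltransferase gene B3gnt5 (-8.93), the MHC class II gene H2-Oa (-8.51), Marchf1 (-8.39), whose product targets MHC class II for degradation, and the ubiquitin ligase gene Rnf144a (-8.20) completed the set, in log2 fold changes.

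The lists described next were compared with the 26.6% of all tested genes that rose and the 23.4% that fell, and no test was made of a list as a whole.

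**Figure D3:**
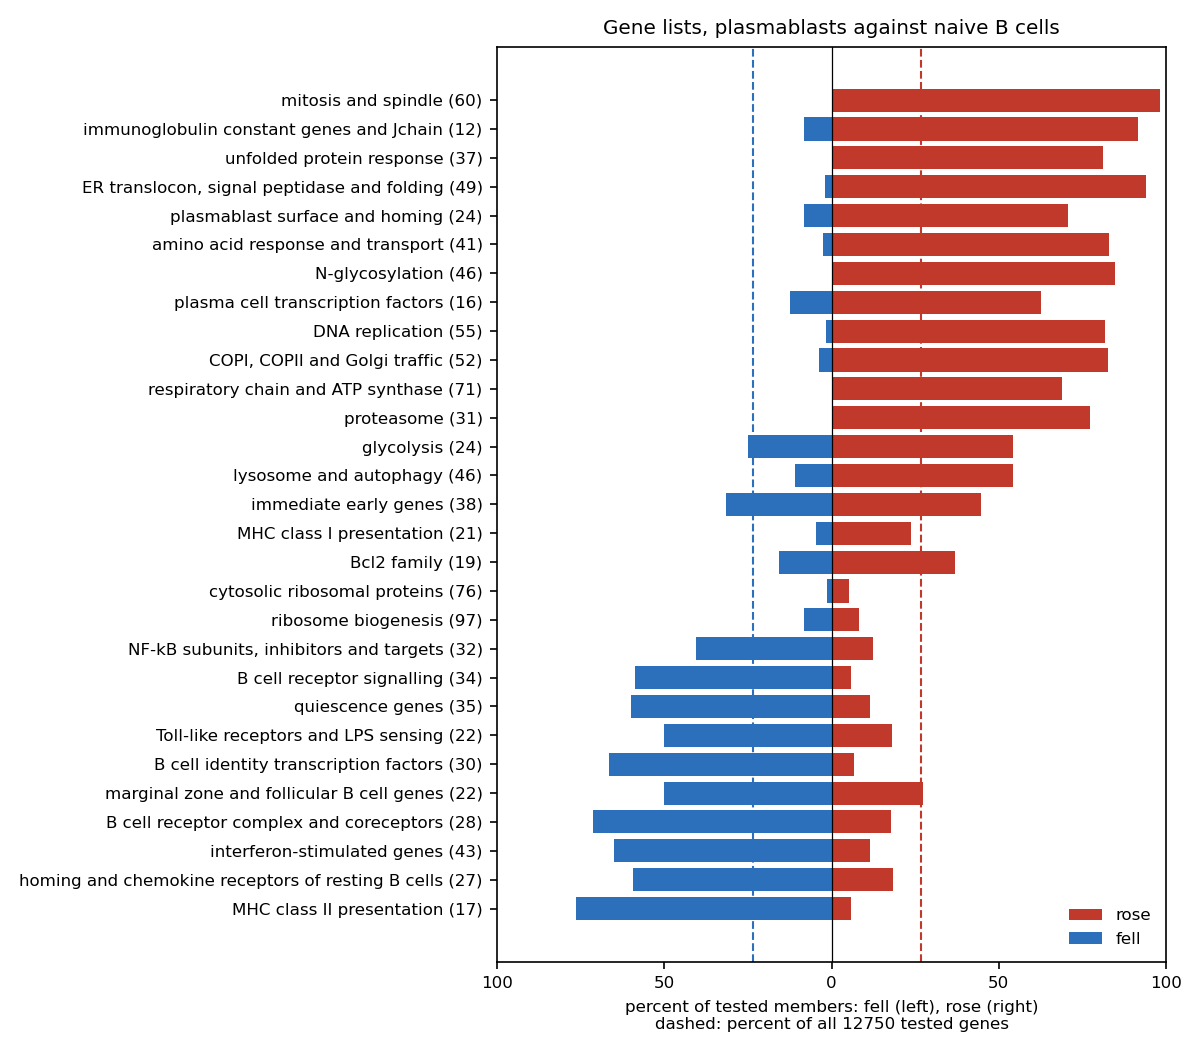
Percent of the tested members of 29 gene lists that fell (left) and rose (right) in plasmablasts against naive B cells, with the number tested in parentheses, ordered by the median log2 fold change. Dashed lines give the percent of all 12750 tested genes, 26.6 for rises and 23.4 for falls, and among rises the mitosis bar and among falls the MHC class II bar is the longest.

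Genes of the secretory pathway rose in plasmablasts, from ER stress targets to vesicle coats. In the unfolded protein response list, which covers the sensors and targets of ER stress, 30 of 37 genes rose and none fell, with a median log2 fold change of 2.78 against 0.02 over all genes. Derl3, which extracts misfolded proteins from the ER, rose from 6.57 and 5.95 to 379 and 415 RPKM (5.98 ± 0.19 on the log2 scale). Sdf2l1, an ER chaperone cofactor, rose from 15.5 and 14.2 to 663 and 641 RPKM, and Creld2, an ER stress target, from 24.6 and 22.9 to 804 and 836 RPKM. Both libraries of plasmablasts lay far above both of naive B cells in these genes. Of the stress sensors, 2 rose, namely Ern1 (log2 fold change 3.09) and Atf6 (2.13), while Eif2ak3 was at 0.53 ± 0.09 and did not pass the test. Ddit3, which encodes CHOP, the factor linked to death under ER stress, was at 0.14 ± 0.21 and did not pass either. Mesd, Mbtps1, Ppp1r15b and Trib3 were among the 7 that missed it in all. Without a filter on low counts Trib3 did pass, with a log2 fold change of 2.25 ± 0.25. Eif2ak3, Ern1, Atf6 and Ddit3 were picked from the list after their values were seen.

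Of the genes for ER translocation, signal peptide cleavage and folding, 46 of 49 rose and 1, the sulfatase-modifying gene Sumf1, fell, with a median of 2.74. Fkbp11, a prolyl isomerase of the ER, rose from 3.73 and 4.42 to 229 and 219 RPKM. Mzb1, a chaperone of IgM assembly, rose from 247 and 233 to 8644 and 8912 RPKM. Txndc5, a disulfide isomerase, rose from 109.9 and 111 to 2728 and 2679 RPKM. The remaining leading member, the translocon gene Sec61g, was at 0.948 and 0.249 RPKM in naive B cells and at 13.5 and 18.1 RPKM in plasmablasts, and its counts are uncertain, since it may share reads with processed copies. In N-glycosylation, 39 of 46 genes rose and none fell, with a median of 1.91. Slc35b1, which brings ATP into the ER, rose from 22.1 and 20.1 to 396 and 422 RPKM, and the oligosaccharyltransferase subunits Rpn1 and Ddost rose by 4.01 and 3.64 on the log2 scale. In vesicle traffic between ER and Golgi, 43 of 52 genes rose and 2 fell, with a median of 1.46. Sec24d, a cargo adaptor of the COPII coat, rose from 1.59 and 1.62 to 100.2 and 103 RPKM, whereas Sec16b, which organises ER exit sites, fell from 0.832 and 0.642 to 0.00911 and 0.0303 RPKM, and so did Sec24b (-0.82 on the log2 scale). Kdelr3, a receptor that returns ER proteins from the Golgi, had no counts in either naive library and 7.52 and 8.21 RPKM in plasmablasts.

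Promoters that hold an element of the ER stress response are shown for the genes with the largest rises among those that hold it. The ER stress response element (ERSE) is known as a site for ATF6 and for XBP1, and was searched as CCAAT, then 9 bases of any kind, then CCACG, on either strand, in the window from 250 bases before to 50 after the start of transcription (RefSeq, GRCm38.p6). Such windows were at hand for 9919 of the 12750 tested genes, and 16 of these held an ERSE, which is 0.161%. The share was 0.420% among genes that rose (11 of 2618), 0.0842% among genes that fell (2 of 2374) and 0.0609% among genes not called (3 of 4927). In the unfolded protein response list 6 of 29 genes held it, in the ER folding list 4 of 38. The 6 with the largest rise follow, each as the 250 bases before the start, 5′ to 3′ on the strand of the gene, with both parts of the ERSE in capitals.
Derl3 (chr10:75893148-75893397, plus strand): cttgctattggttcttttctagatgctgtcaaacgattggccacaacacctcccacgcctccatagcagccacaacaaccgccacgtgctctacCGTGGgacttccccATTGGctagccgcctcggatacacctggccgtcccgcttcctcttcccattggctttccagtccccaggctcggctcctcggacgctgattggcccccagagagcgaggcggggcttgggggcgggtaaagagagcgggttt
Creld2 (chr15:88819396-88819645, plus strand): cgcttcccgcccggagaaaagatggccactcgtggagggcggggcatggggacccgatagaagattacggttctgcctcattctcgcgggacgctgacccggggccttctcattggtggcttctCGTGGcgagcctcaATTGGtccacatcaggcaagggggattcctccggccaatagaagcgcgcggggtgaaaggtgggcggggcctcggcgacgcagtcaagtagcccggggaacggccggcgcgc
Hsp90b1 (chr10:86705445-86705694, minus strand): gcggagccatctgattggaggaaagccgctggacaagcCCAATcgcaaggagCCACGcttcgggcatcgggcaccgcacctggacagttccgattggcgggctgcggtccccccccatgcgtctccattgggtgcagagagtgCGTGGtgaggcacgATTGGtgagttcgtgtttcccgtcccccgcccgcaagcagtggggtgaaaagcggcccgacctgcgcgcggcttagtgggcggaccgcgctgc
Pdia6 (chr12:17266339-17266588, plus strand): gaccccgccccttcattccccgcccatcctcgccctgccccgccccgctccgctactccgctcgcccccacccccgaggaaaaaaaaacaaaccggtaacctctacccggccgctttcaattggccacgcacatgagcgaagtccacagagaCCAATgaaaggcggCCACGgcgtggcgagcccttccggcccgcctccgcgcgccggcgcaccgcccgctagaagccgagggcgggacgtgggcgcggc
Dnajc3 (chr14:118937682-118937931, plus strand): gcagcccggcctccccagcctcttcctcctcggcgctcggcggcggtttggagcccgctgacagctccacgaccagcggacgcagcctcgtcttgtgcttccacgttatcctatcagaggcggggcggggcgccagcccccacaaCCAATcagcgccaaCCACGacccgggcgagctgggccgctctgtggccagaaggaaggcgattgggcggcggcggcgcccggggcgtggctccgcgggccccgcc
Hspa5 (chr2:34771840-34772089, plus strand): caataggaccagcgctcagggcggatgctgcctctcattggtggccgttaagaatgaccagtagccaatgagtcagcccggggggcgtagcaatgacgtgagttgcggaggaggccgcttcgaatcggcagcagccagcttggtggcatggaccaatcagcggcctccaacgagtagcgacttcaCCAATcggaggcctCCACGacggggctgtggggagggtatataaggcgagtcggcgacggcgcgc
In Derl3 and Creld2 the element lies on the opposite strand, Hsp90b1 holds it in both orientations, and Pdia6, Dnajc3 and Hspa5 hold it on the strand of the gene. Hsp90b1, a large chaperone of the ER, rose from 157 and 155 to 4254 and 4498 RPKM, and Hspa5, the chaperone BiP, from 245 and 256 to 2349.5 and 2309 RPKM. Pdia6, a disulfide isomerase, and Dnajc3, an inhibitor of the sensor kinase PERK, rose by 4.22 and 4.02 on the log2 scale. The other 5 genes with an ERSE that rose were Calr, Ero1b, Syvn1, Canx and Alg12. Another element of the stress response, UPRE (TGACGTGG on either strand), was held by 1.76% of genes that rose, 0.590% of those that fell and 1.01% of all, and by 9 of 46 genes of the ER to Golgi traffic list, 2 of 38 of the ER folding list, 0 of 29 of the unfolded protein response list and 0 of 37 of the N-glycosylation list. A match is a description of the sequence and says nothing of binding.

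Immunoglobulin constant genes and Jchain rose in 11 of 12 cases, with a median of 3.64, and Ighd was the exception. Ighm, the constant gene of IgM, rose from 5407 and 5506 to 52151 and 45993 RPKM, and Igkc, of the kappa light chain, from 9037 and 9652 to 162190 and 179070 RPKM. Both were already abundant in naive B cells, which had been sorted as IgM+, and their log2 fold changes were 3.17 and 4.19. Of the heavy chain genes that rose, Igha rose least (1.47 ± 0.24). Ighm, Igkc and Igha were picked for their role after their values were seen.

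Transcription factors moved both ways. Of 16 linked to plasma cells, 10 rose and 2 fell. Prdm1, the repressor that opens the plasma cell programme, rose from 0.603 and 0.475 to 105 and 117 RPKM, and its adjusted p was 1.91e-09 in glmTreat. Creb3l2, a regulator of secretory genes, rose from 2.33 and 2.06 to 49.0 and 55.3 RPKM, and Ell2, an elongation factor known for the secreted form of immunoglobulin, from 9.76 and 9.27 to 196 and 198 RPKM. The 2 that fell were Klf13 (-1.15 ± 0.14) and Ikzf3 (-0.74 ± 0.09), which encodes Aiolos, a factor of B cells as well. Of 30 factors of B-cell identity, 20 fell and 2 rose, with a median of -1.22. Spib, an Ets factor, fell from 415 and 429 to 2.68 and 2.57 RPKM, a log2 fold change of -7.33 ± 0.14. Id3, an inhibitor of E proteins, fell from 131 and 146 to 1.64 and 1.78 RPKM, and Hhex from 106 and 115 to 1.98 and 2.25 RPKM. The 2 that rose were Mef2b (4.81 ± 0.20), a germinal centre factor, and Myb (2.41 ± 0.14), which is known for dividing progenitors.

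Most genes of the antigen receptor and its coreceptors fell. Of this list, 20 of 28 fell and 5 rose, with a median of -1.78. After Cd22 and Fcer2a, the largest fall was that of Pirb, an inhibitory receptor that myeloid cells share, from 13.8 and 13 to 0.0466 and 0.0517 RPKM, and Cd300a, another such receptor, was at 0.872 and 0.484 RPKM in naive B cells and at 0 and 0.00760 RPKM, the floor, in plasmablasts. The 5 that rose were Fcgr2b, Cr1l, Cd81, Cd24a and Slamf6, between 1.02 and 1.58 on the log2 scale. Among the kinases and adaptors of receptor signalling, 20 of 34 fell and 2 rose. Bank1, a scaffold of the pathway, fell from 333 and 354 to 6.65 and 7.04 RPKM. Rasgrp2 and Rasgrp1, exchange factors of the Rap and Ras proteins, had log2 fold changes of -4.08 and -3.40, and Cblb, a ubiquitin ligase that limits the signal, of -3.42. The 2 that rose were the adaptor Blnk (0.91) and the kinase Fyn (1.32). With scaling by the library total the call of Blnk was lost, and so was that of Fcgr2b among the coreceptors.

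Most MHC class II genes fell. Of the 17 genes tested for presentation on class II, 13 fell and 1, the lysosomal protease gene Lgmn, rose (1.48 ± 0.13), with a median of -2.73. H2-Oa, a modulator of peptide loading, fell from 452 and 449.7 to 1.49 and 1.01 RPKM. H2-DMb2, of the loading catalyst, fell from 958 and 959.5 to 24.4 and 23.2 RPKM, and H2-DMb1 from 155 and 151 to 8.25 and 7.33 RPKM. Of the classical chains, H2-Aa had a log2 fold change of -3.40 and H2-Ab1 of -2.73, and H2-Aa still stood at 768 and 711 RPKM in plasmablasts. The invariant chain gene Cd74 fell from 22252 and 21011 to 6184 and 6337 RPKM. Of the 3 genes of the RFX complex, which binds the same promoters, Rfx5 fell (-2.22 ± 0.12), while Rfxap (0.67 ± 0.11) and Rfxank (0.14 ± 0.11) did not pass the test, and the protease gene Ctss (-0.68 ± 0.09) did not either.

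The X box is known as the site of the RFX complex at these genes, and the 2 promoters of the class II list that held it in the letters searched (CCTAGNAAC, either strand) are shown with it in capitals, in the same window as above. They were picked after the values were seen.
H2-DMb1 (chr17:34152941-34153190, plus strand): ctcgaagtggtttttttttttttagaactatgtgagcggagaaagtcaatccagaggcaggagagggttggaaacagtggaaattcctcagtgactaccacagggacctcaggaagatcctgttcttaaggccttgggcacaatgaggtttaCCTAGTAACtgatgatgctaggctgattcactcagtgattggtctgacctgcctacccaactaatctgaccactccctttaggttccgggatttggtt
H2-Ob (chr17:34238655-34238904, plus strand): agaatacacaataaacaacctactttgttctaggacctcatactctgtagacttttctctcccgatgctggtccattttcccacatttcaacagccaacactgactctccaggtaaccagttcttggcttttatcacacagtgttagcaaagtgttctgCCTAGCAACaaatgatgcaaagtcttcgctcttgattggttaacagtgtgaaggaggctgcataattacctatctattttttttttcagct
H2-Ob, the partner of H2-Oa, fell from 397 and 395 to 72.4 and 72.4 RPKM. Over all genes the X box was held by 1.72% of genes that rose, 1.90% of those that fell and 1.91% of all, against 2 of 13 in the class II list and 4 of 38 in the ER folding list, where 46 of 49 genes rose. The largest falls with an X box were Cd177, F13a1, Ccr1, Ptpro, Ifi208 and Enkur. Among them Cd177, F13a1 and Ccr1 are genes of neutrophils and monocytes, whose markers were high in the naive libraries as given above, and their part in this was not tested. The Y box (CTGATTGG) was held by 4 of 13 class II genes, 12 of 29 genes of the unfolded protein response and 13 of 51 mitosis genes. Its share was 9.01% of genes that rose, 4.84% of those that fell and 6.97% of all.

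Receptors that place B cells in lymphoid organs fell and others rose. Of 27 homing and chemokine receptor genes of resting B cells, 16 fell and 5 rose, with a median of -2.36. Ccr7, the receptor that guides cells to the T-cell zone, fell from 182 and 159 to 0.965 and 1.05 RPKM. The lymphotoxin gene Lta was at 20.6 and 19.4 RPKM and then at 0 and 0.0255 RPKM, with plasmablasts at the floor, and Ccr2, which monocytes also express, went from 2.02 and 1.0 RPKM to 0.0118 and 0.0197 RPKM, again at the floor. Of 24 surface and homing genes linked to plasmablasts, 17 rose and 2 fell, with a median of 2.04. Cd28, a costimulatory receptor of T cells and of plasma cells, rose from 0.0890 and 0.144 to 20.3 and 23.1 RPKM, Plpp5, a lipid phosphatase, from 0.983 and 1.45 to 151 and 168 RPKM, and Tnfrsf17, which encodes the survival receptor BCMA, from 0.182 and 0.0477 to 7.51 and 8.64 RPKM. Itgb7, an integrin chain of gut homing, fell from 148 and 155 to 2.36 and 2.65 RPKM, and Cd27 fell as well (-2.52 on the log2 scale). Cxcr4, which guides plasma cells to bone marrow, was at 0.51 ± 0.29 and did not pass the test. Of 22 genes that set marginal zone and follicular B cells apart, 11 fell and 6 rose, and Fcer2a, Tlr3 and Ccr7 were among the leading falls.

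Most of the genes known to answer interferon were lower at the end. Of 43 interferon-stimulated genes 28 fell and 5 rose, with a median of -1.88. The leading members, Ifit3 (16.6 and 10.4 RPKM in naive B cells), Ifit3b (4.71 and 2.95 RPKM), Oas1g (0.889 and 0.856 RPKM) and Mx2 (0.476 and 0.256 RPKM), were at the floor in plasmablasts. Ifit3 and Ifit3b are near copies, so that their counts are uncertain. The 5 that rose were Isg20 (3.82), Isg15 (3.16), Bst2 (2.26), Irf7 (1.51) and Oasl1 (1.26), in log2 terms. Of 22 genes of Toll-like receptors and LPS sensing 11 fell and 4 rose. Besides Tlr9, Tlr1 fell from 66.0 and 65.9 to 0.577 and 0.412 RPKM and Tlr6 from 7.88 and 7.50 to 0.407 and 0.339 RPKM, and Tlr3 went from 1.26 and 1.26 RPKM to the floor at 0 and 0.00815 RPKM. Tlr4, the receptor of LPS itself, was at -0.82 ± 0.23 and did not pass the test. The 4 that rose were Tirap, Ly96, Ticam1 and Irf7. Myeloid cells express many interferon and Toll-like receptor genes too, and any part of such cells in the naive libraries was not tested.

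More NF-kB genes had fallen than risen at the end. Of 32 subunits, inhibitors and targets, 13 fell and 4 rose, with a median of -0.56. Map3k14, the kinase NIK of the alternative pathway, fell from 23.6 and 23.9 to 0.792 and 0.913 RPKM, and Cd40, a receptor for T-cell help, from 44.0 and 46.9 to 4.99 and 4.45 RPKM. The 4 that rose included Nfkbiz, which encodes a nuclear inhibitor-like protein, from 1.20 and 1.01 to 24.2 and 28.2 RPKM, and Bcl2l1, which encodes the survival protein BCL-XL, from 3.21 and 3.37 to 99.9 and 119 RPKM, with Ebi3 (1.93) and Traf1 (0.73) as the others. Within the Bcl2 family, 7 of 19 genes rose and 3 fell. Bcl2 itself fell from 21.2 and 17.8 to 2.38 and 2.54 RPKM while Bcl2l1 rose. Bcl2l14 was at 0.572 and 0.524 RPKM in naive B cells and at 0 in plasmablasts, and Bik was at 0 in naive B cells and at 0.719 and 0.524 RPKM in plasmablasts. Mcl1, another survival gene, was at 0.01 ± 0.11, and its interval of -0.22 to 0.24 lay within 1.5-fold of the naive level. The median of the family was 0.19 and changed sign to -0.10 when libraries were scaled by their total alone.

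Immediate early genes, which answer a stimulus within minutes, were split, with 17 of 38 higher and 12 lower. Ccl3 and Ccl4, chemokines, rose from 0.224 and 0.0982 to 9.54 and 10.3 and from 0.448 and 0.235 to 9.69 and 8.71 RPKM. Nr4a2 had no counts in naive B cells and stood at 0.278 and 0.358 RPKM in plasmablasts, and Fosl1 likewise at 0.0994 and 0.0621 RPKM, whose call was lost under some other settings. Egr3 fell most (-3.60 ± 0.24). Of 35 quiescence genes, 21 fell and 4 rose. After Klf2, Btg1, an inhibitor of proliferation, fell from 182 and 176 to 10.4 and 11.3 RPKM, while Cdkn1a, the cell cycle inhibitor p21, rose from 0.554 and 0.632 to 13 and 15.5 RPKM. Cdkn2c (2.16), Rb1 (1.19) and Mxi1 (1.01) were the other rises. Il7r was at 0.0828 and 0.350 RPKM in naive B cells and at 0 in plasmablasts, a low level whose call was also lost under some other settings.

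Most genes of DNA replication and mitosis rose in plasmablasts. Of 60 genes of mitosis and the spindle 59 rose and none fell, with a median of 3.97, and Pttg1 (-0.22 ± 0.13) was the exception. Ube2c, which drives exit from mitosis, rose from 5.27 and 6.29 to 279 and 280.1 RPKM, and Ccnb1, the mitotic cyclin B1, from 1.01 and 0.737 to 36.6 and 35.0 RPKM. Hmmr and Birc5 rose by 5.60 and 5.24 on the log2 scale. In DNA replication 45 of 55 genes rose and 1, the polymerase delta gene Pold1, fell (-1.22 ± 0.19). Cdc6, which loads the replicative helicase, rose from 0.446 and 0.643 to 23.4 and 21.9 RPKM, Rrm2, of ribonucleotide reductase, from 3.94 and 3.52 to 152 and 156 RPKM, and Mcm10 and Orc1 by 4.73 and 4.41 on the log2 scale. The promoter letters TTTGAA, known as part of a cell cycle element, were held by 35 of 51 mitosis genes and by 14.5% of all genes, with 15.1% of genes that rose and 15.2% of genes that fell.

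Most genes of amino acid and energy supply rose as well. Of 41 genes of the amino acid response and transport, 34 rose and 1, Ddit4, fell (-1.25), with a median of 2.01. Asns rose from 0.169 and 0.302 to 70.6 and 85.7 RPKM, Pycr1, of proline synthesis, from 0.355 and 0.732 to 42.9 and 48.8 RPKM, and Chac1, which degrades glutathione, from 0.151 and 0.124 to 12.8 and 20.0 RPKM, while Stc2 stood at 0 and then at 0.236 and 0.216 RPKM. Of 71 nuclear genes of the respiratory chain and ATP synthase 49 rose and none fell, with a median of 1.02, led by Uqcrq (2.38), Atp5g1 (2.30), Ndufs5 (2.28) and Ndufb6 (1.85). Of 31 proteasome genes 24 rose and none fell, with a median of 0.95, led by Psmd14, from 51.9 and 60.6 to 157 and 161 RPKM, Psmb4, from 183 and 186 to 525 and 514 RPKM, Psmb5 (1.45) and Psmd8 (1.44). These changes were small, and with scaling by the library total the number of rises was 34 for respiration and 11 for the proteasome. Of 24 glycolysis genes 13 rose and 6 fell, with Pkm, of pyruvate kinase, going from 189 and 193 to 924 and 937 RPKM and the lactate carrier Slc16a1 from 3.49 and 3.15 to 14.2 and 13.5 RPKM, while Ldhb left the floor for 0.722 and 0.711 RPKM and Hk3 went to it from 0.515 and 0.391 RPKM. Of 46 lysosome and autophagy genes 25 rose and 5 fell, led by Wipi1, of autophagosome formation, from 0.406 and 0.448 to 17.1 and 19.6 RPKM and by the proton pump subunit Atp6v0a1, from 18.6 and 18.7 to 157 and 173 RPKM, with Ctsl (3.05) and Gabarapl1 (2.32).

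Many genes moved and then ended within 1.5-fold of where they began. A gene was taken as back at the naive level when it differed by glmTreat from naive B cells at an intermediate stage, differed from that stage again in plasmablasts in the opposite direction, and had a 95% interval of the net log2 fold change within 1.5-fold of naive, that is within ±0.585. Both comparisons share the naive or plasmablast libraries, and the genes were chosen by these values, so that no test follows. Of 4624 genes with such an excursion, 1156 were back, 733 after a rise (5.75% of all tested) and 423 after a fall (3.32%). Of the rest, 1690 still differed at the end, 687 on the side of the excursion and 1003 on the other, and 1778 could not be placed either way. The farthest stage was 3 h for 494 of the 733 and for 253 of the 423. Replicates also differed most at 3 h. The standard deviation over genes of their log2 ratio was 0.53 there, against 0.30 to 0.39 at the other stages. A further 1154 genes lay within 1.5-fold of naive at the end with no excursion called.

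**Figure D4:**
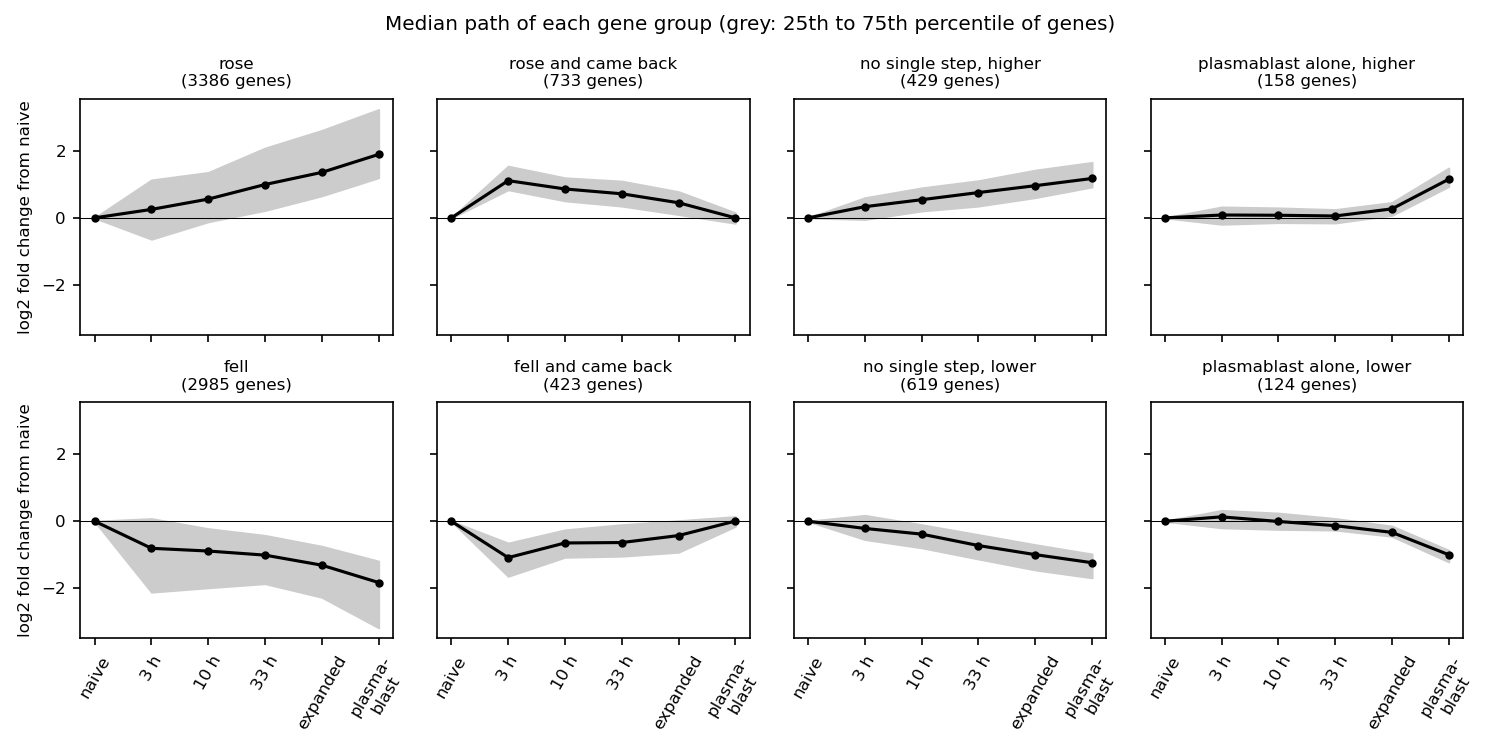
Median log2 fold change from naive B cells at each stage for 8 groups of genes, with the 25th to 75th percentile of genes in grey. The groups that came back peaked at 3 h, at medians of 1.11 and -1.08, and ended at 0.00. The plasmablast-alone groups were chosen to stay within 1.5-fold of naive at the intermediate stages. Their medians went from 0.27 to 1.15 (higher) and from -0.33 to -1.0 (lower) over the last step.

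Myc, a transcription factor of cell growth, had the largest rise among the returning genes of some abundance. It stood at 31.1 and 28.9 RPKM in naive B cells, at 835 and 706 RPKM at 3 h and at 27.0 and 35.0 RPKM in plasmablasts, with a net log2 fold change of 0.05 (95% interval -0.20 to 0.30) after a peak of 4.68. The ends overlapped. The histone demethylase gene Kdm2b went from 18.9 and 18.4 RPKM through 157 and 139 RPKM at 3 h to 15.9 and 15.3 RPKM. Cd69, an early activation marker on which the undivided cells were sorted, was at 35.2 and 32.5 RPKM in naive B cells, at 269 and 263 RPKM at 3 h and at 28.4 and 46.8 RPKM in plasmablasts. Polr1b, a subunit of RNA polymerase I, went from 16.6 and 15.9 RPKM through 104 and 128 RPKM at 3 h to 15.1 and 14.7 RPKM. Cd3eap, of the same enzyme, went from 7.06 and 7.33 RPKM through 52.2 and 56.9 RPKM to 8.65 and 8.74 RPKM. The kinase gene Pim3 completed the leading set, with a peak of 2.83 and a net value of 0.25 on the log2 scale, but it was placed among the returning genes under only 11 of 23 other settings, against 23 of 23 for Myc.

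Among the genes that fell and returned, Ctse, the protease cathepsin E, was at 39.3 and 36.4 RPKM in naive B cells, at 4.19 and 3.59 RPKM at 33 h and at 36.6 and 39.3 RPKM in plasmablasts, with a net interval of -0.25 to 0.26. Serpina3g, a protease inhibitor, was at 51.7 and 53.2 RPKM, at 3.60 and 1.95 RPKM at 10 h and at 49.2 and 55.4 RPKM. Myadm, a membrane protein gene, was at 28.4 and 30.3 RPKM, at 1.19 and 1.04 RPKM at 10 h and at 34.8 and 36.9 RPKM. The ends overlapped for Ctse and Serpina3g and not for Myadm. Kctd12 (lowest at -3.06), the adenylyl cyclase gene Adcy7 (-2.92) and the exchange factor gene Ralgps2 (-2.89) ended at -0.28, -0.30 and -0.30 on the log2 scale, and none of these 3 was placed among the returning genes when libraries were scaled by their total. The same held for Kdm2b, Polr1b and Serpina3g. Within the bound of 1.5-fold, the F-test, which asks for a difference of any size, still set plasmablasts apart from naive B cells for Kdm2b (adjusted p of 0.0108), Myadm (0.0465), Adcy7 (0.00856) and Ralgps2 (0.00484).

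Ribosome biogenesis was the list with most returning genes. Of its 97 tested members 45 were back after a rise, against 5.75% of all genes, and the median went from 1.84 at 3 h through 0.76 in expanded B cells to -0.03 in plasmablasts. Only 8 rose and 8 fell in net terms. Gnl3, which encodes nucleostemin, rose most, from 19.0 and 18.7 to 77.3 and 74.1 RPKM, and Lyar rose from 25.2 and 25.3 to 53.8 and 52.4 RPKM, while the nucleolar factor gene Tcof1 fell from 66.2 and 70.7 to 30.9 and 31.4 RPKM and the helicase gene Ddx10 from 20.9 and 25.6 to 11.1 and 11.1 RPKM. With scaling by the library total, 34 were back, 3 rose and 18 fell. The medians of the cytosolic ribosomal proteins lay between -0.26 and 0.00 at all stages, and 55 of 76 genes lay within 1.5-fold of the naive level at the end with no member back after an excursion. With scaling by the library total 1 of them rose and 7 fell. Rpl41 (1.16), Rps29 (0.95), Rpl27 (0.77) and Rplp0 (0.74) rose and Rps27 (-0.90) fell, and since these genes have many processed copies their counts are uncertain. The calls of Rpl27, Rps29 and Rplp0 were lost with scaling by the library total, and that of Rps27 under other settings.

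Among 21 genes of MHC class I presentation, 8 were back after a fall, against 3.32% of all genes, H2-K1, H2-D1, Tap1 and Tap2 among them, and of the 17 class II genes 1 was. The 5 class I rises were Calr, Pdia3, Canx, Tapbpl and Tapbp, of which the first 3 are general ER chaperones, and H2-Q4 fell (-1.63). The H2 genes of this list are close copies of each other, so that their counts are uncertain. The median of the list, 0.25, changed sign to -0.03 when libraries were scaled by their total, and the call of Tapbp was lost.

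**Figure D5:**
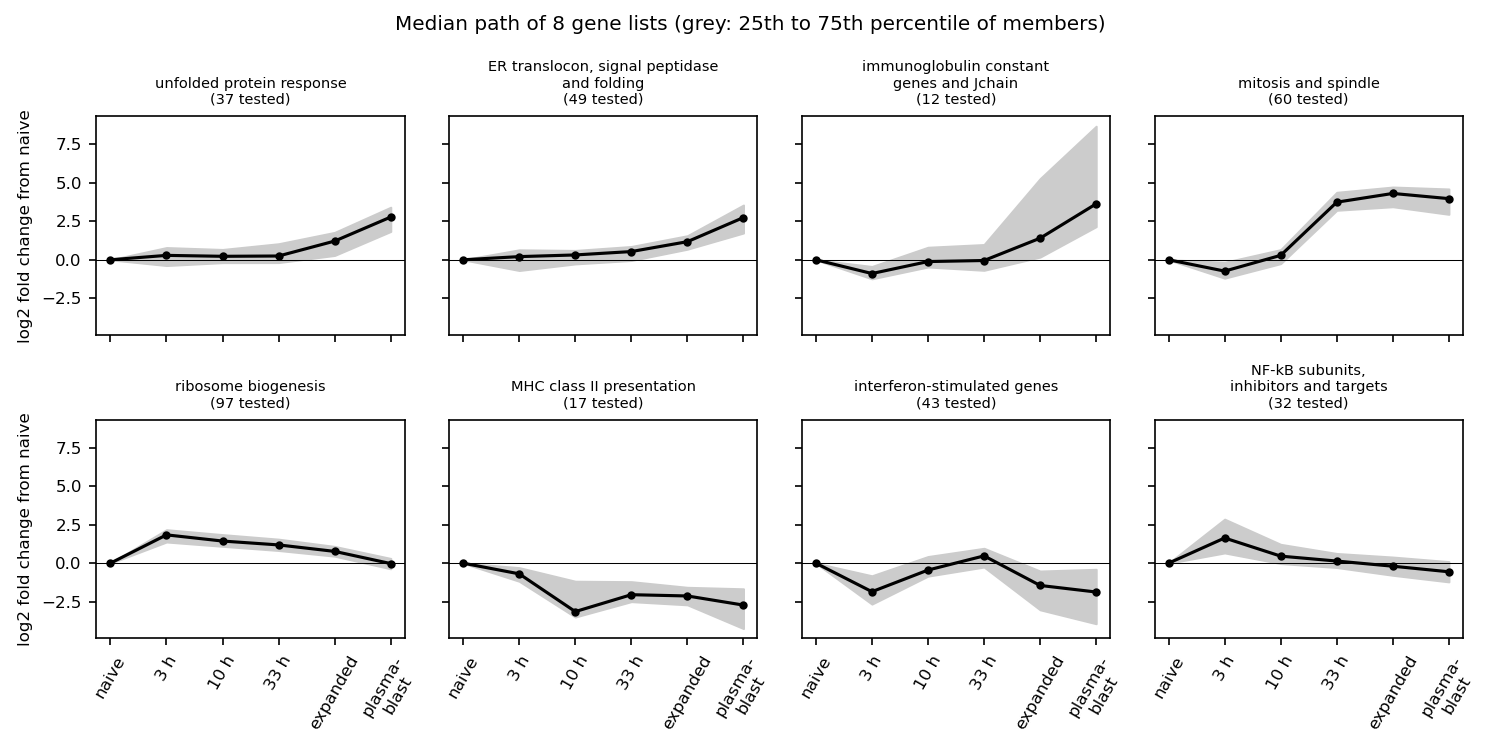
Median log2 fold change from naive B cells at each stage for 8 gene lists, with the 25th to 75th percentile of members in grey. Ribosome biogenesis and NF-kB genes peaked at 3 h and returned to 0 or below, mitosis genes were high from 33 h on, and ER genes rose most at the last stage.

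Other genes differed between the ends without a step that passed the test. For 1048 genes, 16.4% of those that rose or fell, none of the 5 steps between consecutive stages was called, 429 of them higher at the end (3.36% of all tested) and 619 lower (4.85%). The median net log2 fold change was 1.17 and -1.23, and in 132 of them (12.6%) all 5 fitted steps went the same way. The rule looked at steps only, so that such a gene could differ from naive B cells at an intermediate stage too. In expanded B cells the medians against naive were 0.96 and -0.99. Asl, which encodes argininosuccinate lyase, rose from 10.1 and 11.8 to 39.8 and 44.2 RPKM by way of 13.9 and 15.2 RPKM (3 h), 14.6 and 15.1 RPKM (10 h), 20.1 and 18.6 RPKM (33 h) and 27.2 and 25.8 RPKM (expanded B cells). Tmod3, which caps actin filaments, fell from 128 and 133 to 24.4 and 22.5 RPKM by way of 97.6 and 79.1 RPKM (3 h), 51.7 and 54.7 RPKM (10 h), 47.2 and 40.0 RPKM (33 h) and 35.7 and 33.3 RPKM (expanded B cells). In both genes the ends did not overlap, and no step between neighbouring stages passed the test. Against naive B cells, both passed glmTreat at 33 h and in expanded B cells, so that they did not differ at the ends alone. The other leading rises were Aldh18a1 (2.29), Ccdc134 (1.98), Nudt4 (1.93) and G2e3 (1.92), and the other leading falls were Kctd14 (-3.22), Sfxn3 (-2.64), Zscan20 (-2.63) and Tut4 (-2.33). The libraries at 3 h differed in Aldh18a1, at 14.6 and 43.2 RPKM, and it was in this group under 14 of 23 other settings. The respiratory chain list held 21 such genes among its 71, against 3.36% of all genes, and the ribosomal proteins 3 of 76. The group depends on the threshold for a step, since 92 genes were left when steps were called by the F-test, which asks for a difference of any size.

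For 282 genes the change appeared in plasmablasts alone, in that no intermediate stage was called against naive B cells and all 4 lay within 1.5-fold of it. Of these, 158 were higher (1.24% of all tested) and 124 lower (0.973%), with medians of 1.15 and -1.0. Of the 282, 125 are also among the genes without a step. The group depends on the rule for the intermediates. When they only had to be uncalled by the F-test, 132 genes were in the group, and 38 of them were among the 282. Slc44a1, a choline transporter, lay between 3.56 and 7.75 RPKM in the 10 other libraries, of which the expanded B cells were of the same day, and at 55.0 and 53.8 RPKM in plasmablasts. Yif1b, of ER to Golgi traffic, was at 41.6 and 40.5 RPKM in naive B cells, at 54.3 and 56.5 RPKM in expanded B cells and at 224 and 229 RPKM in plasmablasts. Selenof, an ER selenoprotein, went from 83.7 and 87.8 RPKM through 130.0 and 119 RPKM in expanded B cells to 408 and 383 RPKM. Tmem184b (2.23) was also among the 5 leading rises, and so was Tmed10-ps (3.00), a pseudogene that shares reads with Tmed10 and is uncertain. By list, 10 of 52 genes of ER to Golgi traffic were in this group, 4 of 46 of N-glycosylation and 6 of 46 of lysosome and autophagy, against 1.24% of all genes.

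Among the genes lower in plasmablasts alone, Aim2, a sensor of cytosolic DNA, was at 15.5 and 15.1 RPKM in naive B cells, 11.4 and 10.5 RPKM in expanded B cells and 2.47 and 2.25 RPKM in plasmablasts. Lpxn, an adaptor of cell adhesion, went from 84.7 and 82.9 RPKM through 64.3 and 64.2 RPKM in expanded B cells to 14.9 and 14.5 RPKM. Ccdc50 went from 37.0 and 36.7 RPKM through 31.8 and 28.6 RPKM to 9.51 and 8.04 RPKM. In each of them the plasmablast values lay below those of all 10 other libraries. The DNA methyltransferase gene Dnmt3a (-1.95 ± 0.11) and the helicase gene Dhx35 (-1.58 ± 0.13) were also among the leading falls. The antigen receptor signalling genes Syk, Cbl and Vav2 were in this group as well, 3 of 34 of their list against 0.973% of all genes.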

How the data were processed

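RNA was prepared from biological duplicates of 6 stages and sequenced with TruSeq kits on an Illumina NextSeq instrument. The authors aligned reads to mm10 with the Rsubread aligner and counted them per gene with featureCounts and its inbuilt Entrez annotation. The submitters' processing notes also name CASAVA 1.8.2. The deposited counts are raw, whole numbers of reads per gene, and no column belonged to another sample (0 columns). Of 27179 genes, 25275 matched the annotation table. Unmatched identifiers (1904), ribosomal RNA (33), X and Y genes (1279), mitochondrial genes (15) and immunoglobulin variable segments (248) were left out, which gave 23700 genes, and 12750 passed the filter on low counts.

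All 12 libraries were fitted together in edgeR 4.0.16 (R 4.3.3, limma 3.58.1) with TMM scaling and robust quasi-likelihood dispersions, with no covariate. Differences were tested with glmTreat against a fold of 1.5, with Benjamini-Hochberg adjustment over all genes tested, and the fit was tested on simulated data. RPKM values were computed from the counts, gene lengths and TMM-scaled library sizes. DESeq2 1.42.0, other scalings, filters and thresholds, a replicate block and fits without each library were the alternatives. Promoters are from RefSeq (GRCm38.p6), and motifs were counted over any promoter of a gene.

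The genes named included the 4 markers, and the 10 largest rises and falls above the floor whose log2 CPM averaged 5 or more. The 6 leading returning genes each way were also named. Without a called step, and likewise in plasmablasts alone, the 5 leading genes each way were named (log2 CPM averaging 4 or more). From each list came up to 4 called members with the largest change, besides those singled out by small counts. Some genes that the rule names are not reported here, and the next gene was taken for the leading sets. Where a gene is named for its role, it was chosen after its values were seen. The members, gene lists and rules were chosen with earlier results of these data known.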

Additional observations from a re-analysis of the deposited data

How the results depend on the processing

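The net change was called for 5835 to 6698 genes when any library was left out, for 4469 at a fold threshold of 2, 4656 with at least 10 counts in every library, 5273 by DESeq2 and 9451 by the F-test, against 6371. The number of genes back at the naive level was 559 at a fold threshold of 2 and 2233 when the interval had to lie within 2-fold, against 1156, and 796 to 1401 without 1 library. When the net change had to be under 1.5-fold and uncalled by the F-test, 1490 were back, 896 of them among the 1156. Genes with no single step numbered 1022 to 1298 without 1 library, and 92 when no step was to be called by the F-test, which detects steps of any size. Genes changed in plasmablasts alone numbered 252 to 333 without 1 library, 103 at a fold threshold of 2, 806 when intermediates only had to be uncalled by glmTreat, 132 when they had to be uncalled by the F-test, and 462 (98 higher and 364 lower) with scaling by the library total, of which 171 were among the 282. With that scaling 576 of the 1156 returning genes and 564 of the 1048 genes without a step were kept. Of the 132 genes left in the plasmablast-alone group under the F-test, only 38 were among the 282. Among the named rises, scaling by the library total took the calls of Blnk, Fcgr2b, Irf7, Mxi1, Rpl27, Rplp0, Rps29, Tapbp and Traf1. The cause of the shift with scaling was not tested. No named gene reversed, and 94 of 5377 values of named genes under other settings lost their call, most often for Rpl27 (16), Traf1 (12), Rps29 (9) and Irf7 (8), while 11 values of Tlr4, Trib3, Ctss, Cxcr4 and Rfxap gained one. Calls were lost without naive replicate 1 for Ddit4, Fosl1, Rpl27 and Rps29, and without naive replicate 2 for Fosl1, Ikzf3, Il7r, Irf7, Rpl27, Rps29 and Traf1. They were lost without plasmablast replicate 1 for Ddit4, Fosl1, Ikzf3, Irf7, Rpl27, Rps27 and Sec24b, and without plasmablast replicate 2 for Ikzf3, Il7r, Irf7, Rpl27, Rplp0, Rps29 and Traf1.

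Replicate numbers are shared across stages in the labels, but same-numbered libraries did not deviate together, with correlations of -0.139 to 0.084 over 15 pairs of stages and -0.017 for naive B cells and plasmablasts. With a replicate block 6357 genes were called, 1149 were back, 1054 had no single step and 281 changed in plasmablasts alone. Depth limits genes near the floor of 3 counts, for which no fold change is given, and with 2 libraries a group the spread rests on the model.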
